A study of Mus musculus with 2 samples.

Results

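Notch signalling passes between cells that touch each other, and 10 of its genes were read here in single cells of mouse liver: the ligands Dll4, Jag1 and Jag2, the receptors Notch1, Notch2, Notch3 and Notch4, and the target genes Hey1, Hey2 and Heyl. The genes were chosen by name as members of the pathway, with earlier results of these data known. All 10 were among the 22508 genes of the count table. The cells came from livers of healthy 8-week-old C57BL/6 mice, dissociated by enzymes, cleaned on a Percoll gradient and profiled by droplet-based 3' RNA sequencing. There were 2 samples of 1 group (wild type, with no treatment, genetic change or disease named in the labels), WT replicate 1 and WT replicate 2. How many animals gave each sample and whether cell types were sorted is not given in the sources used here.

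A Notch ligand on one cell binds a Notch receptor on its neighbour, the receptor is cut by an ADAM protease and by gamma-secretase, and the freed inner part moves to the nucleus. There it joins the DNA-binding protein Rbpj and a Mastermind coactivator and turns on target genes, of which the Hes and Hey families of transcriptional repressors are the best known. In liver, Jag1 and Notch2 are known for bile duct development, Dll4 and Notch1 for the arterial side of blood vessels, and Notch3 for smooth muscle and pericytes.

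The 2 samples held different cells. WT replicate 1 had 7362 cells and 40645060 UMIs (unique molecular identifiers, 1 for each RNA molecule counted), and WT replicate 2 had 2341 cells and 11867207 UMIs. Cell types were set by gates, that is by how many markers of a type had a UMI in a cell, and are named here with "-gated". Of the cells kept, 91.8% of WT replicate 2 were stellate-gated (2149 cells), and WT replicate 1 held 8 stellate-gated cells. The sinusoidal endothelial gate held 2841 cells of WT replicate 1 and 1 cell of WT replicate 2. Stellate cells store vitamin A and lie between hepatocytes and the sinusoids, the capillaries of the liver, whose lining is the sinusoidal endothelium. No type had at least 20 cells in both samples, so that stellate cells and their library cannot be told apart when they are set against the other types, and no difference below has a replicate check or a test. Intervals are exact 95% intervals that cover counting error only. Genes outside the gates fitted the gate names: Dcn reached 27693 CPM (UMIs of a gene per 1000000 UMIs summed over the cells of a type) in stellate-gated cells, Pecam1 682 CPM in sinusoidal endothelial-gated cells, Csf1r 1788 CPM in Kupffer-gated cells (the macrophages of the sinusoids) and Alb 31599 CPM in hepatocyte-gated cells. Kupffer-gated cells also carried 618 CPM of the endothelial gene Cdh5, against 901 CPM in sinusoidal endothelial-gated cells.

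Of the 10 genes, 8 were matched to a RefSeq promoter window of GRCm38.p6 (250 bases before to 50 bases after the gene start), all but Hey1 and Heyl. The windows were read on both strands for TGGGAA, the core of the motif of Rbpj, which reads TTCCCA on the other strand. A longer form that contains it, GTGGGAA, was read as well, on the other strand as TTCCCAC. Of all 32851 windows 25.6% held the shorter form and 6.38% the longer form. Of the 8 matched members, Hey2 alone held the shorter form, with 2 matches that both lay in the longer form. Its window is shown, with those of Lfng, an enzyme that adds sugars to Notch receptors, and of Dll4, since these genes recur in the results below. The matched letters are in capitals.
Hey2, chr10:30842734-30843033, minus strand: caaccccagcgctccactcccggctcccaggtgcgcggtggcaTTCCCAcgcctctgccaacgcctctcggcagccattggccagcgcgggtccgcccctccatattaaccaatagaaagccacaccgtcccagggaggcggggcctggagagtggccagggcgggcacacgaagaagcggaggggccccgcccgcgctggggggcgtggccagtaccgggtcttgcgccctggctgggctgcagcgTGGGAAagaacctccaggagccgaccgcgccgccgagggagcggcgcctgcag
Lfng, chr5:140607091-140607390, plus strand: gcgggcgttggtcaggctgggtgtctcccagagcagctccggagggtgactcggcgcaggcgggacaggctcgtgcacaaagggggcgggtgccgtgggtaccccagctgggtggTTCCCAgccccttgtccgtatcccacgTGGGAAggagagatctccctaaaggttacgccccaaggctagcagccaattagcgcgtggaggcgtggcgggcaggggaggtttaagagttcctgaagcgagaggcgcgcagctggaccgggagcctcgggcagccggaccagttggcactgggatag
Dll4, chr2:119325534-119325833, plus strand: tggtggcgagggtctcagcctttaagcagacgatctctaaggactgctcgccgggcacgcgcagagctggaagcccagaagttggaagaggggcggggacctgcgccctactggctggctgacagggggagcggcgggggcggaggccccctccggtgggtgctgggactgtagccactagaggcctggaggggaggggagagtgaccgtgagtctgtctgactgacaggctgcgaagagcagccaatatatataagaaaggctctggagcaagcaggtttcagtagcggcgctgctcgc
In the Hey2 window the matches began 207 and 3 bases before the gene start. Lfng had 2 matches, at 135 and 108 bases before its start, of which the second lay in the longer form. The Dll4 window held neither form in these 300 bases. A match is a run of letters and was not read as a binding site.

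Among the ligands, Dll4, the endothelial Delta-like ligand (gene at chr2:119325784-119335962 on GRCm38), was an endothelial transcript with a portal and a sinusoidal level and almost none at the central vein. It reached 183 CPM (154 to 215; 145 UMIs) in portal and arterial vascular endothelial-gated cells and 125 CPM (119 to 130; 1887 UMIs) in sinusoidal endothelial-gated cells. Lymphatic endothelial-gated cells had 66.7 CPM (35.5 to 114; 13 UMIs), and central vein endothelial-gated cells 4.32 CPM (0.523 to 15.6; 2 UMIs in 84 cells). Neighbours among the first 3 of these levels had intervals that did not overlap, and central vein endothelial-gated cells lay below all 3. Stellate-gated cells had 12.1 CPM, Kupffer-gated cells 2.22 CPM, and T-gated and hepatocyte-gated cells 0 UMIs, which allows up to 4.80 and 2.72 CPM. A Dll4 UMI was seen in 61.6% of portal and arterial vascular (53 of 86), 40.0% of sinusoidal and 2.38% of central vein endothelial-gated cells. Median UMIs were 7063, 4930 and 5966 in these types and 3401 in T-gated cells. After thinning each cell to 1500 UMIs the shares were 20.2%, 15.8% and 0% (0 of 78 cells, which allows up to 3.85%), and 0% in T-gated cells (0 of 156, up to 1.92%), in the same order.

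Jag1, a Jagged ligand, was found in vessel wall, bile duct and mesenchymal gates. The portal and arterial vascular endothelial gate had 177 CPM (149 to 208; 140 UMIs) and the smooth muscle gate 145 CPM (82.9 to 236; 16 UMIs in 16 cells), with overlapping intervals. Cholangiocyte-gated cells, the lining of the bile ducts, followed with 70.0 CPM (57.1 to 85.0) and central vein endothelial-gated cells with 56.2 CPM (36.7 to 82.3). Portal fibroblast-gated cells at 41.5 CPM and stellate-gated cells at 41.4 CPM (37.6 to 45.4; 443 UMIs) could not be separated. Sinusoidal endothelial-gated cells had 18.2 CPM (16.2 to 20.5), below the stellate level, and T-gated and hepatocyte-gated cells 1 UMI each. Jag1 was thus seen in 18.1% of stellate-gated cells and in 0.610% of T-gated cells, and after thinning in 5.70% and 0% of them. Jag2, the other Jagged ligand, was rare, with 55 UMIs in all kept cells of WT replicate 1. Of these 23 were in portal and arterial vascular endothelial-gated cells (29.0 CPM, 18.4 to 43.5) and 11 in sinusoidal endothelial-gated cells (0.727 CPM). Stellate-gated cells of WT replicate 2 held 0 Jag2 UMIs, which allows a level of up to 0.280 CPM.

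The receptors divided the cells differently. Notch1 was highest in the endothelium, with 509 CPM (461 to 562) in the portal and arterial vascular gate, 450 CPM (439 to 461) in the sinusoidal gate, 371 CPM (318 to 431) in the central vein gate and 210 CPM (151 to 285) in the lymphatic gate. The first 3 of these levels had non-overlapping intervals with their neighbours in the order, but only by a small margin. Stellate-gated cells had 160 CPM (152 to 167; 1707 UMIs), with a UMI in 51.5% of cells, which overlapped with lymphatic endothelial-gated and plasmacytoid dendritic-gated cells. T-gated cells had 88.0 CPM of Notch1, a receptor that T cells are known to use, and Kupffer-gated cells 69.7 CPM. Hepatocyte-gated cells were at 9.96 CPM.

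Notch2 was lowest in the portal and arterial vascular, sinusoidal and central vein endothelial gates, where Notch1 was highest. Its highest levels were in neutrophil-gated cells (134 CPM, from 8 UMIs), monocyte and conventional dendritic-gated cells (88.9 CPM, 65.8 to 118), B-gated cells (88.2 CPM, from 7 UMIs) and cholangiocyte-gated cells (83.0 CPM, 68.9 to 99.2; seen in 59.6% of cells). Smooth muscle-gated cells had 72.5 CPM (8 UMIs), mesothelial-gated cells, the surface layer of the organ, 70.2 CPM, portal fibroblast-gated cells 63.7 CPM and Kupffer-gated cells 57.4 CPM (53.2 to 61.9). Of the 1268 Notch2 UMIs of WT replicate 1, Kupffer-gated cells held 53.2%. Stellate-gated cells had 20.7 CPM, hepatocyte-gated cells 16.3 CPM and sinusoidal endothelial-gated cells 3.44 CPM. The neighbours among the types from 134 to 57.4 CPM overlapped with each other, so their order is not settled at this depth.

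Notch3 was highest in smooth muscle: 54 of the 96 UMIs of WT replicate 1 lay in the 16 smooth muscle-gated cells (490 CPM, 368 to 639), and 13 of these 16 cells had a UMI. The next type, plasmacytoid dendritic-gated cells, had 32.8 CPM from 7 UMIs, portal and arterial vascular endothelial-gated cells 12.6 CPM (10 UMIs in 3 cells) and stellate-gated cells 4.49 CPM (48 UMIs in 29 cells). Sinusoidal endothelial-gated cells held 1 Notch3 UMI. Notch4, the endothelial receptor, had 58.3 CPM (54.5 to 62.3) in sinusoidal, 44.1 CPM (30.7 to 61.4) in portal and arterial vascular and 25.9 CPM (13.4 to 45.3) in central vein endothelial-gated cells, each overlapping with the next. Stellate-gated cells lay below these, at 9.63 CPM (7.86 to 11.7), and T-gated cells had 0 UMIs.

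The highest levels of Hey1 lay in other gates than those of Hey2 and Heyl, which were both highest in the smooth muscle gate. Hey1 was highest in lymphatic endothelial-gated cells (56.4 CPM, 28.2 to 101; 11 UMIs) and portal and arterial vascular endothelial-gated cells (36.6 CPM, 24.5 to 52.5; 29 UMIs), which overlapped. B-gated (25.2 CPM), smooth muscle-gated (18.1 CPM) and neutrophil-gated cells (16.7 CPM) came next, from 2, 2 and 1 UMIs, with wide intervals that overlapped with both. Kupffer-gated cells with 6.14 CPM, stellate-gated cells with 5.61 CPM (60 UMIs) and sinusoidal endothelial-gated cells with 2.25 CPM stood far lower than the lymphatic and portal and arterial vascular gates. Hey2 was a mesenchymal transcript, with 99.7 CPM (49.8 to 179; 11 UMIs) in smooth muscle-gated and 9.72 CPM (7.94 to 11.8; 104 UMIs) in stellate-gated cells, against 0.132 CPM in sinusoidal endothelial-gated cells and 0 UMIs in Kupffer-gated and T-gated cells. Heyl followed with 118 CPM (62.8 to 202; 13 UMIs) in smooth muscle-gated, 40.0 CPM (26.3 to 58.2) in portal fibroblast-gated and 30.7 CPM (27.4 to 34.2; 328 UMIs) in stellate-gated cells. Sinusoidal endothelial-gated cells had 4 Heyl UMIs (0.264 CPM), and T-gated cells 1 UMI. A Heyl UMI was found in 11.9% of stellate-gated cells and in 0.610% of T-gated cells.

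**Figure D1:**
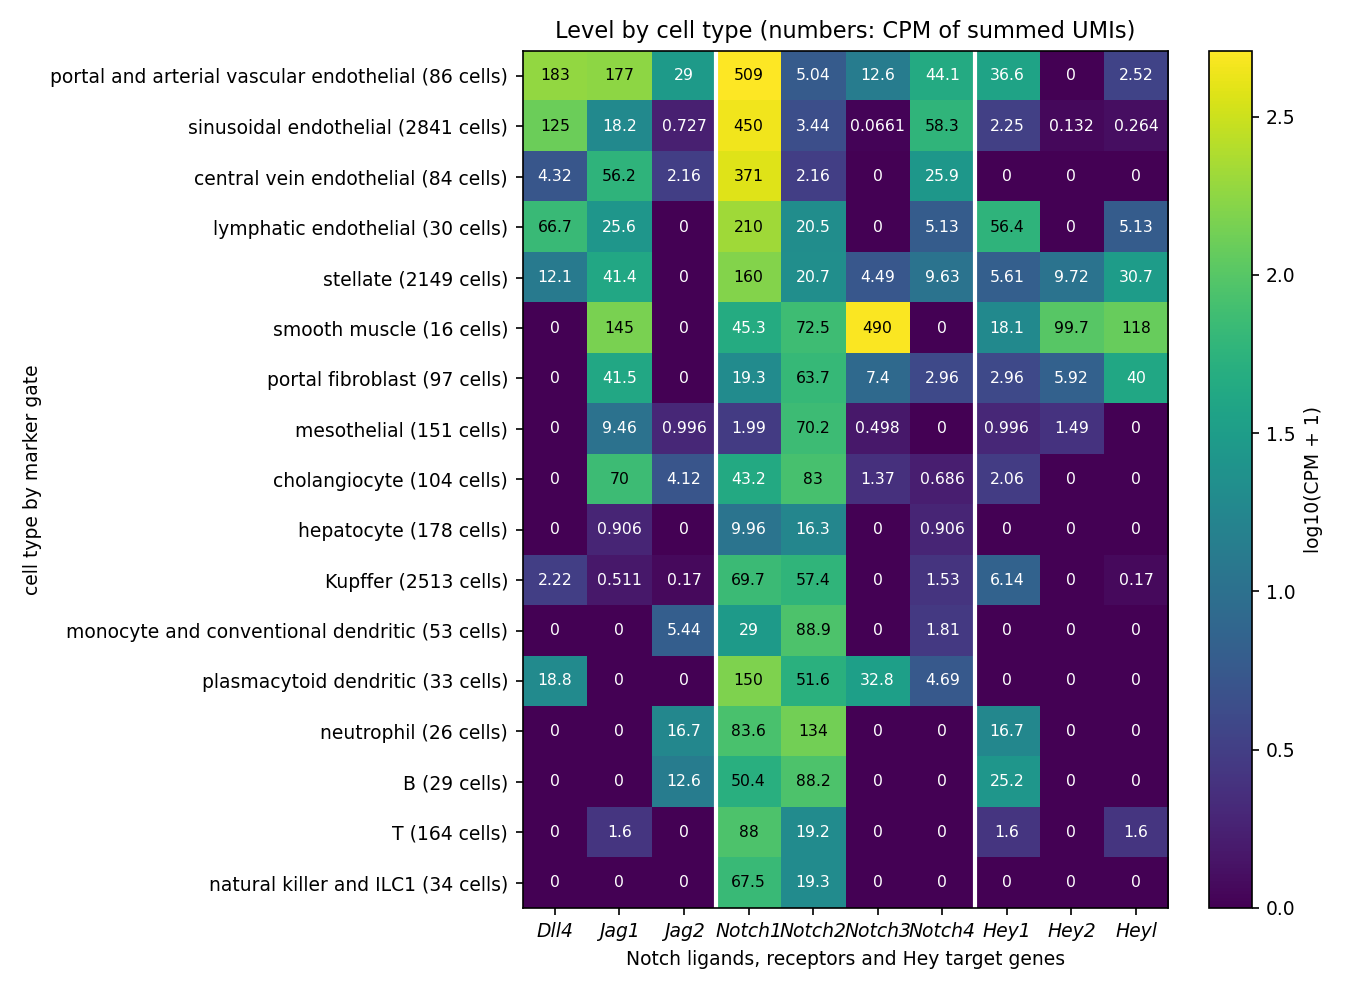
Level of the 10 genes in the 17 gated cell types. Rows are cell types with their number of cells, columns are genes, the printed number is the CPM of summed UMIs and the colour its log10(CPM + 1). Notch1 is high in all 4 endothelial rows, Dll4 in all of them but the central vein row and Notch4 in all but the lymphatic row, Notch2 is high in the bile duct, mesothelial and myeloid rows, and Notch3, Hey2 and Heyl are highest in the smooth muscle row, which rests on 16 cells.

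Each type with at least 20 cells was compared with the other such types by their mean CPM, which leaves out the smooth muscle gate. That gate had the highest Notch3, Hey2 and Heyl (490, 99.7 and 118 CPM), so the folds of these genes lack their highest type. A gene with at least 50 UMIs was counted as higher or lower past 2-fold. A list of 54 pathway genes in the table (ligands, receptors, sugar-adding enzymes, proteases, endocytosis genes, nuclear partners and targets) gave 53 genes with enough UMIs, and all 10 members were among them. The members' levels above and these folds are the same counts seen in another way.

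In portal and arterial vascular endothelial-gated cells 7 of the 10 members were higher, where 9.15% of all 14878 genes were, and 2 were lower, where 21.4% of all genes were. The higher ones were all 3 ligands, Notch1, Notch3, Notch4 and Hey1, from 4.05-fold for Notch3 (10 UMIs in 3 cells) to 11.99-fold for Dll4. The lower ones were Notch2, from 4 UMIs, and Heyl, from 2 UMIs with a counting interval of 0.305 to 9.11 CPM. Of the list, 14 genes were higher and 6 lower. They included Nrarp, a feedback inhibitor of Notch signalling, at 149 CPM against a mean of 9.67 CPM (15.4-fold), the ligand Dll1 (6.06-fold), and Efnb2, an arterial ephrin ligand (206 against 33.9 CPM, 6.06-fold). The median log2 fold of the list was 0.37, against -0.08 over all genes.

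In sinusoidal endothelial-gated cells 3 members were higher (background 13.6%) and 6 lower (28.4%). Notch4 was 8.97-fold, Dll4 6.52-fold and Notch1 3.62-fold above the mean of the other types, and Notch3, Heyl, Notch2, Hey2, Jag2 and Hey1 were below it. Of the list, 13 genes were higher and 13 lower. Among the higher ones were Numb, an endocytic inhibitor of Notch (4.07-fold), Mib1, the ubiquitin ligase that ligands need (2.96-fold), and the target Hes1 (605 against 227 CPM, 2.66-fold). Central vein endothelial-gated cells had 3 members higher (background 8.64%), Notch4, Notch1 and Jag1, and 3 lower (18.1%), Notch2, Dll4 and Jag2. Dll1 (69.1 CPM, 6.35-fold) and Lfng (162 CPM, 3.83-fold) led their 7 higher list genes. Sox9, a bile duct gene and Notch target, was at 0 UMIs there and at 586 CPM in cholangiocyte-gated cells.

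Outside the blood vessels, portal fibroblast-gated cells had 3 members higher (background 11.3%), Heyl (14.9-fold), Hey2 (7.83-fold, from 4 UMIs) and Notch3 (2.14-fold, from 5 UMIs), and 4 lower (21.6%). Cholangiocyte-gated cells had Jag1 alone higher (2.82-fold, background 16.4%) and 6 members lower (23.3%), beside Hes1 at 568 CPM (2.47-fold). Lymphatic endothelial-gated cells had Hey1 (8.46-fold) and Dll4 (2.90-fold) higher (background 8.54%) and Notch2, from 4 UMIs, lower (14.3%). Dtx1, a Notch target, was at 359 against 13.8 CPM there. Kupffer-gated cells had 0 members higher (background 11.7%) and 8 lower (35.7%), while Adam10 and Adam17, the proteases that cut Notch receptors, were at 299 CPM (3.59-fold) and 197 CPM (5.48-fold).

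In stellate-gated cells 2 members were higher (background 12.3%), Hey2 with 9.72 against a mean of 0.503 CPM (19.3-fold) and Heyl with 30.7 against 3.31 CPM (9.26-fold). Both means leave out the smooth muscle gate, which lay above the stellate level at 99.7 CPM of Hey2 and 118 CPM of Heyl. Jag2, Notch2 and Dll4 were lower (background 26.5%). Of the list 5 genes were higher and 12 lower, shares below or near the background of all genes, and the list's median log2 fold of -0.10 was near the -0.12 of all genes. The other higher genes were the Mastermind gene Maml3 (57.9 CPM, 3.53-fold), Hes1 (732 against 219 CPM, 3.35-fold) and Neurl1b, a ubiquitin ligase of ligands (2.86-fold). Nrarp (1.87 CPM), Efnb2 (3.74 CPM), Lfng (3.93 CPM), Dll1 (1.78 CPM) and Sox9 (1.03 CPM) were all lower, and Rbpj, at 60.8 CPM, was within 2-fold. Set against the highest other type instead of the mean, 0 list genes were higher in stellate-gated, sinusoidal or central vein endothelial-gated cells and 2 in portal and arterial vascular endothelial-gated cells. The share of all genes was not computed for this comparison.

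Stellate-gated cells were then divided along the liver lobule, which runs from the portal vein to the central vein. Ngfr, a neurotrophin receptor, marks portal stellate cells and Adamtsl2, a secreted matrix protein, central ones. There were 287 cells with Ngfr UMIs alone, 1042 with Adamtsl2 UMIs alone, 416 with both and 404 with neither. Median UMIs were 4909 in Ngfr-positive and 4815 in Adamtsl2-positive cells. The division followed other landmarks, since Igfbp3 was at 824 against 219 CPM and Podn at 41.2 against 213 CPM in Ngfr-positive against Adamtsl2-positive cells.

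The target gene Heyl marked the portal end. It had 111 UMIs (78.8 CPM, 64.8 to 94.9) in Ngfr-positive cells and 70 UMIs (13.7 CPM, 10.7 to 17.4) in Adamtsl2-positive cells, a 5.74-fold difference (4.22 to 7.85). The cells with both landmarks had 39.3 CPM and the cells with neither 29.3 CPM, so that all 4 classes were ordered, with overlapping intervals between these middle classes only. A Heyl UMI was seen in 79 of 287 Ngfr-positive cells (27.5%) and 64 of 1042 Adamtsl2-positive cells (6.14%), and after thinning in 9.76% and 2.03%. The highest Ngfr-positive cell held 4 Heyl UMIs, and 107 remained without it. Of the 7 members with at least 50 UMIs over both sides, Heyl alone passed 2-fold (background 0.960% of 9269 genes) and 0 were lower (background 1.88%). The fold was 2.45 when cells with both landmarks were put on both sides, 3.58 with 4 landmarks a side, and 12.1, from 30 against 10 UMIs, in cells with no sinusoidal endothelial UMI.

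Notch3 was on the same side with fewer molecules. There were 31 UMIs in 19 Ngfr-positive cells (22.0 CPM, 15.0 to 31.2) and 3 UMIs in 3 Adamtsl2-positive cells (0.589 CPM, 0.121 to 1.72), a ratio of 37.4 with a counting interval of 11.7 to 191. With 34 UMIs over both sides it missed the minimum of 50. The 29 stellate-gated cells with a Notch3 UMI also differed from the other 2120 in smooth muscle RNA, with Tagln at 713 against 156 CPM and Myh11 at 126 against 7.48 CPM. Smooth muscle-gated cells had 12694 CPM of Tagln and 4524 CPM of Myh11. Of the other smooth muscle markers, Acta2 was at 154 CPM in stellate-gated cells with Notch3 against 3.69 CPM without, and Mustn1 at 440 against 504 CPM. Cnn1, Actg2 and Pln were at 0 in both. The stellate marker Lrat was at 1286 against 1127 CPM, and the stellate marker Reln at 1614 against 2111 CPM. Heyl was at 175 against 28.7 CPM in those with and without Notch3.

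The smooth muscle panel as a whole had 769 CPM in Ngfr-positive and 666 CPM in Adamtsl2-positive cells, with 2 of its 3 markers with enough UMIs higher in Ngfr-positive cells and 3 of its 7 markers at 0. Without the cells with a UMI of Myh11, Acta2, Cnn1, Actg2 or Pln, a choice made after seeing the data that left 247 Ngfr-positive and 1019 Adamtsl2-positive cells, Heyl stayed at 5.67-fold. Notch3 was then at 17 against 3 UMIs, 23.5-fold.

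The ligands stood just under 2-fold. Jag1 had 57.5 CPM (45.7 to 71.5) in Ngfr-positive and 29.4 CPM (24.9 to 34.5) in Adamtsl2-positive cells, 1.95-fold (1.47 to 2.58). Dll4 had 20.6 CPM from 29 UMIs and 10.6 CPM from 54 UMIs in these classes, 1.94-fold (1.19 to 3.11). Both intervals lay above 1 and neither excluded 2-fold. Jag1 passed 2-fold under 4 of 11 alternatives (1.48 to 3.71) and Dll4 under 3 of 11 (1.19 to 2.62). Some of these 11 could not change a ratio, as given at the end.

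The receptor Notch1 was flat, at 169 CPM in Ngfr-positive and 157 CPM in Adamtsl2-positive cells, 1.08-fold (0.928 to 1.25). Notch2 at 30.5 and 21.0 CPM gave 1.45-fold (0.996 to 2.09) and Notch4 at 7.81 and 10.2 CPM gave 0.77-fold (0.360 to 1.48). Hey2 gave 1.23-fold (0.637 to 2.26; 15 and 44 UMIs), and Hey1 had 12 and 28 UMIs. Hes1 ran the other way within 2-fold, with 588 CPM in Ngfr-positive and 768 CPM in Adamtsl2-positive cells, 0.76-fold (0.709 to 0.825). Heyl and Hes1, both targets, thus differed between the classes in opposite directions, with intervals that did not overlap.

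**Figure D2:**
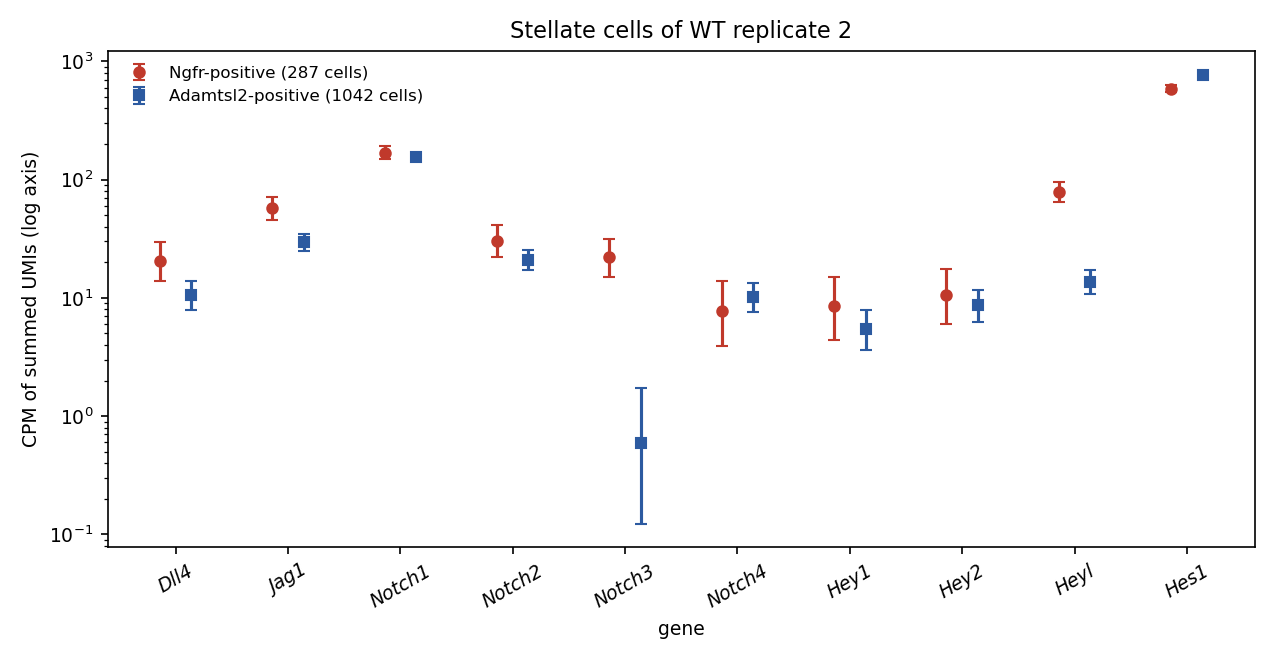
Level of the members with UMIs in stellate cells, and of Hes1, in stellate-gated cells of WT replicate 2. The y axis is the CPM of summed UMIs on a log scale, points are the level of each class and bars the exact 95% counting interval. Heyl and Notch3 are separated between Ngfr-positive (left, circles) and Adamtsl2-positive cells (right, squares), and Notch1 is not.

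**Figure D3:**
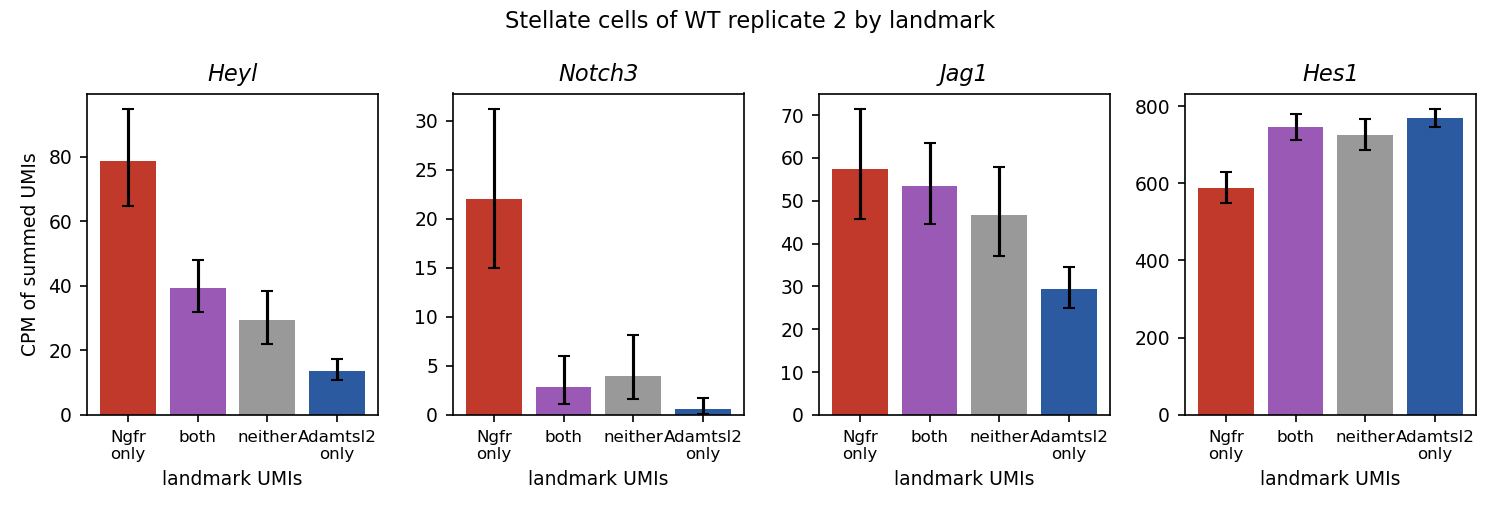
Heyl, Notch3, Jag1 and Hes1 in the 4 landmark classes of stellate-gated cells. Bars are the CPM of summed UMIs from 0 and lines the exact 95% counting interval. Heyl is ordered 78.8, 39.3, 29.3 and 13.7 CPM from cells with Ngfr alone to cells with Adamtsl2 alone, and Hes1 is lowest in cells with Ngfr alone.

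Over the pathway list, 41 genes had enough UMIs in both stellate classes together, and 38 of them were within 2-fold. Of all 9269 genes 0.960% were higher and 1.88% lower, so that nearly all genes were within 2-fold. Neurl1b was higher with Heyl, at 20.6 against 6.87 CPM (3.0-fold, 1.77 to 5.05; 29 against 35 UMIs), and Rfng, a fringe enzyme that adds sugars to Notch receptors, was lower, at 3.55 against 12.8 CPM (0.28-fold, 0.087 to 0.683; 5 against 65 UMIs). Neither call held with 4 landmarks a side (1.90-fold and 0.64-fold). All 10 nuclear partners, Rbpj among them (59.6 against 66.1 CPM), and all 9 protease genes were within 2-fold, as nearly all genes were. Nrarp, Dll1, Efnb2 and Sox9 had at most 14 UMIs in either class. The median log2 ratio of the list was 0.11, against -0.01 over all genes.

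Endothelial RNA was present in the stellate library. Clec4g, a sinusoidal endothelial marker, was at 205 CPM in stellate-gated cells, against 2660 CPM in sinusoidal endothelial-gated cells. For each Clec4g UMI there were 0.0593 Dll4 UMIs in stellate-gated and 0.0469 in sinusoidal endothelial-gated cells. For Notch4 these ratios were 0.0469 and 0.0219, for Notch1 0.778 and 0.169, and for Jag1 0.202 and 0.00686. The ratio to Clec4g was not constant over other endothelial genes. It was 0.330 and 0.355 for Stab2 and 0.471 and 0.487 for Gpr182. For Oit3 it was 0.157 and 0.418, for Pecam1 0.134 and 0.256, for Wnt2 0.0565 and 0.121, and for Efnb2 0.0182 and 0.0597. The part of endothelial RNA in the stellate level of Dll4 was not tested. In the 492 stellate-gated cells with no UMI of Stab2, Clec4g, Oit3 or Gpr182, Dll4 was at 13.4 CPM, against 11.9 CPM in the other 1657 cells. Notch4 was at 6.69 against 10.3 CPM and Pecam1 at 16.2 against 30.1 CPM in these cells. Jag1 was at 40.6 against 41.6 CPM, Notch1 at 146 against 163 CPM and Heyl at 33.9 against 29.9 CPM. The level in the other cells lay inside the counting interval of the 492 cells for all 5 of these members, and outside it for Pecam1. The sinusoidal panel was at 2015 CPM in Ngfr-positive and 1845 CPM in Adamtsl2-positive cells, with 0 of 8 markers past 2-fold. In cells with no sinusoidal endothelial UMI, a choice made after seeing the data, the Dll4 ratio was 1.34 from 6 against 18 UMIs.

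The same axis was read in the endothelium of WT replicate 1, with Ltbp4 and Ntn4 as portal landmarks and the ligand gene Wnt2 as the central one. There were 1062 sinusoidal endothelial-gated cells with Ltbp4 or Ntn4 alone, called portal here, 194 with Wnt2 alone, called central, 1450 with both sides and 135 with neither. Median UMIs were 4463 and 4088 in portal and central cells. Msr1, a portal gene outside the division, was at 572 and 53.0 CPM, and the central gene Kit at 99.7 and 584 CPM.

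Dll4 was a portal ligand of the sinusoid. Portal cells had 904 UMIs (183 CPM, 171 to 195) and central cells 34 UMIs (43.9 CPM, 30.4 to 61.4), 4.16-fold (2.96 to 6.05). Cells with landmarks of both sides lay between them at 99.8 CPM (93.4 to 106). Cells with neither landmark had 139 CPM (95.7 to 195; 33 UMIs), above the central cells and overlapping with the portal cells and those with both. A Dll4 UMI was seen in 49.2% of portal and 16.5% of central cells, and after thinning in 23.3% and 6.75%. Jag1 had 151 and 9 UMIs (30.5 and 11.6 CPM), 2.63-fold (1.35 to 5.85). Of the 4 members with at least 50 UMIs, these 2 ligands were higher (background 4.57% of 8759 genes) and 0 lower (background 1.40%). Notch1 stayed within 2-fold, with 503 CPM in portal and 362 CPM in central cells (1.39-fold, 1.23 to 1.58), and Notch4 was at 56.2 and 62.0 CPM (0.91-fold, 0.665 to 1.26). Hey1 had 25 UMIs in 19 portal cells and 0 UMIs in central cells, which allows up to 3.88 CPM, beside 5.06 CPM in portal cells. It missed the minimum of 50 UMIs, and the counting interval of its ratio began at 0.984. Hey2 had 1 and 0 UMIs and Heyl 0 in both.

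Over the list, 40 genes had enough UMIs, 7 were higher in portal cells (background 4.57%) and 1 was lower (background 1.40%). Efnb2 gave the largest ratio, with 250 CPM in portal and 36.2 CPM in central cells (6.90-fold, 4.75 to 10.4). Hes1 was at 716 and 342 CPM (2.09-fold, 1.85 to 2.38), so that its direction here was portal, while in stellate-gated cells it was central. Nrarp, with 292 and 27 UMIs, gave 1.69-fold (1.14 to 2.61) and Rbpj 1.46-fold (0.974 to 2.28).

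Lfng alone was lower, with 33.8 CPM in portal and 190 CPM in central cells (0.18-fold, 0.142 to 0.223), and Dll1 leaned the same way at 18.2 and 29.7 CPM (0.61-fold, 0.384 to 1.02). Dll4 and Lfng were thus opposed along the sinusoid, as they were between the large vessels, where Lfng was at 46.7 CPM in portal and arterial vascular and 162 CPM in central vein endothelial-gated cells. Dtx3, Aph1b and Rfng, the other higher list genes, rested on 4, 2 and 4 UMIs in central cells.

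**Figure D4:**
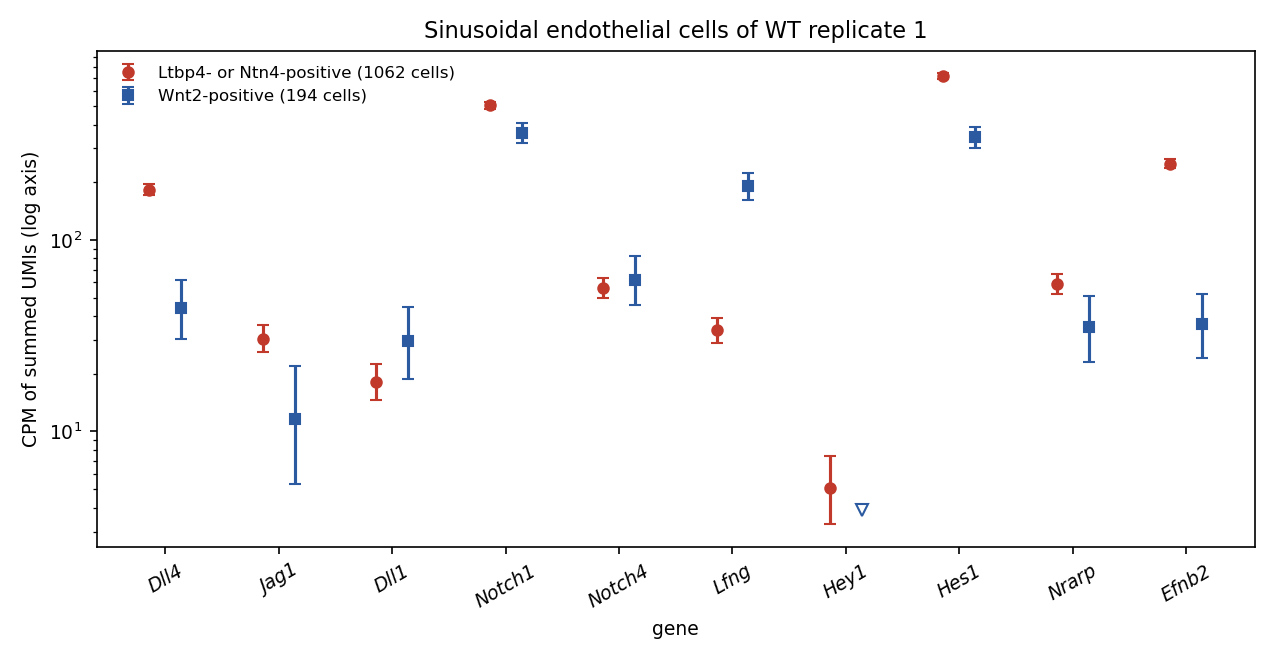
Level of Notch pathway genes in sinusoidal endothelial-gated cells of WT replicate 1. The y axis is the CPM of summed UMIs on a log scale, bars are the exact 95% counting interval, and the open triangle is the limit that 0 UMIs allow. Dll4, Hes1 and Efnb2 are higher in portal cells (left, circles) and Lfng is higher in central cells (right, squares).

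Markers of the portal and arterial vascular panel moved with this division, at 367 CPM in portal and 112 CPM in central cells, with 5 of its 7 markers with enough UMIs higher in portal cells. In single cells the panel ranged over 0 to 7321 CPM in portal and 0 to 1678 CPM in central cells. Without the cells with at least 2 of these markers, a choice made after seeing the data that left 854 portal and 186 central cells, Dll4 stayed at 3.79-fold, Efnb2 at 6.15-fold, Hes1 at 2.16-fold and Lfng at 0.20-fold. Jag1 was then at 1.04-fold, from 46 against 9 UMIs. With cells of both sides counted on both sides Dll4 was at 1.35-fold and Hes1 at 1.12-fold, and no list gene passed 2-fold.

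How many cells had both ligand and receptor RNA depended on the type and on depth. Of the 53 portal and arterial vascular endothelial-gated cells with Dll4, all 53 also had Notch1, in a type where 93.0% of all cells had it. After thinning these were 7 of 17 cells, where 46.4% of all cells had Notch1. Of the 1137 sinusoidal endothelial-gated cells with Dll4, 999 had Notch1 (79.9% of all cells), and after thinning 221 of 411 (48.3% of all cells). A UMI of any of the 3 ligands and of any of the 4 receptors was seen together in 77.9% of portal and arterial vascular, 39.4% of sinusoidal and 19.0% of central vein endothelial-gated cells, 35.6% of cholangiocyte-gated and 13.1% of stellate-gated cells. After thinning the values were 21.4%, 10.6%, 3.85%, 1.94% and 2.20%. In stellate-gated cells a receptor UMI was as frequent in cells with a ligand UMI (58.4%) as in the others (58.0%), and after thinning the shares were 28.5% and 25.8%. In portal and arterial vascular endothelial-gated cells they were 97.1% and 88.2%, and after thinning 47.4% and 47.8%. In sinusoidal endothelial-gated cells the shares were 90.3% and 78.5%, and after thinning 59.5% and 51.2%. Any Hey UMI was found in 17.6% of stellate-gated and 1.13% of sinusoidal endothelial-gated cells, and 33 stellate-gated cells had more than 1 Hey gene.

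For each member the 3 genes most alike over the 16 types with at least 20 cells were found by Pearson's r of log2(CPM + 1), a description in which 15 of the 16 points share 1 library and the depths differ. Dll4 was most like 8030487O14Rik (r = 0.96), Gm14207 (0.93) and Bcl6b (0.91), and Notch4 was most like Erg (0.93), Gja4 (0.93) and Gipc3 (0.93). Jag1 was most like Tead2 (0.96), Mtmr11 (0.95) and Ccdc157 (0.95). Heyl was most like Gdf10 (0.97), Postn (0.92) and Igsf10 (0.92). Hey2 reached 0.99 or more with Gm34030, Gm42481 and Aff2, 3 transcripts seen mostly in the stellate library, and Hey1 reached 0.77 with Efnb2, below 2900060B14Rik (0.78) and above Car7 (0.75). Notch1 was most like Serinc3 (0.85), Pecam1 (0.84) and Sh2b3 (0.82), and Notch2 most like Celf2 (0.83), Irs2 (0.82) and Gm42819 (0.77). Jag2 (Mcf2l 0.84, Prpf38a 0.79, Gm42715 0.71) and Notch3 (Sfxn4 0.85, Jrk 0.85, Nap1l3 0.83) rest on few UMIs in these types.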

How the data were processed

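The data are 10x 3' libraries of dissociated mouse liver, 2 samples of 1 group. The deposited table holds raw UMI counts per gene and cell, whole numbers that the authors did not scale. Cell Ranger 2.1.1, Seurat 3.1 and GRCm38 are named in the submitters' processing notes, and which cells had been removed before is not given in the sources used here. Barcodes end in 1 or 2, which was taken as the replicate, and 5 of them occur with both endings.

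The cell filter asked for 200 genes or more and a mitochondrial share of UMIs of no more than 20%, which removed 597 of 7362 cells of WT replicate 1 and 0 of 2341 of WT replicate 2. A cell entered the gate of the panel with the largest share of markers detected, if at least 3 were detected and no panel of another family passed 75% of that share. The families were endothelial, mesenchymal (stellate, smooth muscle, portal fibroblast) and lymphoid (T, natural killer), and each other panel stood alone. Cells left out as mixed were 133 and 191 in WT replicate 1 and 2, and 185 of WT replicate 1 had too few markers. This step also served against doublets. No caller was run, and free RNA was not subtracted. The 17 panels, of 6 to 9 markers each, were applied alike to both samples.

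Counts were summed per type and scaled to CPM. Levels have exact Poisson intervals, shares exact binomial intervals, and ratios exact intervals conditional on the sum. A share or level of 0 allows up to 3 counts. For a ratio, a sum of 0 was set to 3 UMIs. Genes with at least 50 UMIs over the cells compared were called at 2-fold. For thinned shares each cell was reduced to 1 draw of 1500 UMIs, and for thinned ratios to the mean of 20 draws. Without replicates no model was fitted. The members were always named, as were up to 12 called list genes a comparison, Hes1, Rbpj, Nrarp, Dll1, Sox9 and Efnb2, and the 3 most similar genes for each member. The members, lists and landmarks were chosen with earlier results of these data known. Coordinates are from GENCODE vM21 on GRCm38 and promoter sequences from RefSeq. Python 3.11.15, numpy 2.4.6, scipy 1.17.1 and pandas 2.3.3 were used. The ratio code was tested on simulated data.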

Additional observations from a re-analysis of the deposited data

How the results depend on the processing

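No paired analysis was possible because no cell type had at least 20 cells in both samples and no result comes from a test. For the same reason leaving out WT replicate 1 gave no value for the comparison of types and leaving out WT replicate 2 none for the stellate division. Of 161 recomputed counts of list genes or members, 132 stayed within 1.5 times the reported count, among them those with stricter or looser gates and other mitochondrial limits. The 132 include counts that could not change, those of each division with the other sample left out.

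Against the highest other type, list genes higher and lower numbered 0 and 37 in stellate-gated, 0 and 28 in sinusoidal, 2 and 29 in portal and arterial vascular and 0 and 32 in central vein endothelial-gated cells. The share of all genes was not computed at this setting, so these counts are no result about the list. In the stellate division, list genes higher numbered 4 with landmarks of at least 2 UMIs, 1 with cells of both landmarks on both sides, 1 with 4 landmarks a side, 4 by the mean CPM of each cell, 4 after thinning and 1 without cells with sinusoidal endothelial UMIs. List genes lower numbered 0 with at least 2 UMIs, with both sides and with 4 landmarks. Members higher numbered 3 with at least 2 UMIs, by the mean CPM of each cell and after thinning, where Jag1 and Dll4 joined Heyl, and 2 with no filter on UMIs, where Notch3 joined it. In the sinusoidal division, list genes higher, members higher and list genes lower were all 0 with cells of both sides on both sides. With 4 landmarks a side they were 3 list genes and 1 member higher, without vascular markers 4 and 1, and with no filter 3 list genes were lower. Leaving out cells with smooth muscle, sinusoidal endothelial or vascular markers was chosen after seeing the data. The share of all genes is not given here for the settings of the 2 divisions either. Their counts show how the calls depend on the setting and are no result about the list or the members.

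The ratio of Heyl in stellate-gated cells ranged over 2.45 to 12.1 and passed 2-fold under all 11 alternatives, and that of Notch3 over 7.46 to 48.8. The sinusoidal ratio of Dll4 ranged over 1.35 to 5.04, of Efnb2 over 1.45 to 7.29, and of Lfng over 0.161 to 0.718, each past 2-fold under 9 of 10. Some alternatives in these numbers could not change a ratio. Each division used 1 sample, so leaving out the other left it the same, and the UMI filter affects calls only. The stricter gate kept as many stellate-gated cells as before, 287 and 1042. Differences between types with only a few UMIs of Jag2, Hey1, Hey2 or Notch3 were not detectable at this depth.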
